A study of Mus musculus with 99 samples.

Results

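The genes described here are the mouse genes whose symbol on the array is Zfp followed by digits, the family name for zinc finger proteins. Of 149 such genes on the array, 85 had a mean over all arrays above the 40th percentile of all probe-set means (3.59 log2 units), and these 85 were selected on that measured level. Each gene was read from its brightest probe set. They are 85 of the 7513 genes that passed the same level, and the level itself is therefore a description and not a result. Just inside the threshold lay Zfp120 (3.61), Zfp52 (3.62) and Zfp326 (3.63), and just outside it lay Zfp428 (3.59), Zfp202 (3.59) and Zfp944 (3.58).

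Most proteins of this family carry tandem C2H2 fingers, in which cysteines and histidines hold a zinc ion and the finger reads a short stretch of DNA. Many also carry a KRAB domain, which recruits the co-repressor encoded by Trim28 and the histone methyltransferase encoded by Setdb1, and these proteins are best known for silencing transposable elements. KRAB zinc finger genes lie in clusters that arose by tandem duplication and differ between mouse strains. The name is not exclusive to transcription factors, and some Zfp genes encode RNA-binding or ribosome-associated proteins.

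RNA was measured in hearts of male mice on a chow diet under a 12 hour light and dark cycle, with no treatment and 1 Affymetrix HT_MG-430A array per strain. The growth protocol gives an age of 16 weeks, while the age label runs from 16 to 113 along the sample order and was not used. The arrays cover 11 BXH, 30 BXD, 15 AXB and 13 BXA recombinant inbred strains, 28 classical inbred strains, the wild-derived CAST/EiJ and B6cC3-1/KccJ. Each recombinant inbred strain carries, in homozygous form, a fixed mixture of 2 parental genomes. One is C57BL/6J throughout, and it was crossed with C3H/HeJ for BXH, with DBA/2J for BXD and with A/J for the reciprocal AXB and BXA. Near-isogenic strains (AXB19, AXB19a and AXB19b, and BXD24 with the BXD24 strain that carries Cep290 rd16) each count as 1 family, so BXD has 29 families and AXB 13. BXD29 carries the Tlr4 allele lps-2J. No strain had a second array and the labels do not say whether an array held 1 animal or a pool, so the SDs and p-values given here reflect strain differences together with technical variation.

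The values are the authors' log2 levels, with array medians from 3.97 to 4.07, and the number of arrays limits the precision. Ventricular cardiomyocyte markers averaged between 12.63 and 12.99 on the arrays, so the tissue label held. Markers of lung and airway exceeded the median array by over 2 log2 units in 8 of 11 BXH, 7 of 30 BXD, 4 of 15 AXB, 1 of 13 BXA and 8 of 28 classical arrays. With liver, squamous epithelium, fast skeletal muscle, thymus and thyroid markers, 43 of the 99 arrays passed that level for at least 1 list. In such bulk tissue, fewer cells of a type and less RNA per cell cannot be told apart.

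Zfp30 and Zfp277 carry the clearest strain patterns below. The differences of Zfp30 between panel means were not repeated in the Zfp genes next to it. Of these, Zfp84 and Zfp940 read near the array medians. For these reasons the promoters of Zfp30, of the Zfp genes next to it and of Zfp277 are shown. Each runs from 250 bases before to 50 bases after the RefSeq start in GRCm38.p6, on the strand of the gene, 5′ to 3′. Capitals mark matches on either strand to any of 3 core promoter motifs. The CCAAT box was searched under its own letters. For the GC box the letters searched were GGGCGG. For the TATA box they were those of TATAAA. The windows are chr7:29768302-29768601 (plus strand), chr7:29783718-29784017 (plus), chr7:29815822-29816121 (plus), chr7:29853599-29853898 (minus) and chr12:40445741-40446040 (minus).
Zfp84: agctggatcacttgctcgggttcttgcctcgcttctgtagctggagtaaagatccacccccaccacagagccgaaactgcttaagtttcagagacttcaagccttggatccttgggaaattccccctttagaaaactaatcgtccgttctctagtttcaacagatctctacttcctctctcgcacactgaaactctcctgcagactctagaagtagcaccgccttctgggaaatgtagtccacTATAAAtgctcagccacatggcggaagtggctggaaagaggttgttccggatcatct
Zfp30: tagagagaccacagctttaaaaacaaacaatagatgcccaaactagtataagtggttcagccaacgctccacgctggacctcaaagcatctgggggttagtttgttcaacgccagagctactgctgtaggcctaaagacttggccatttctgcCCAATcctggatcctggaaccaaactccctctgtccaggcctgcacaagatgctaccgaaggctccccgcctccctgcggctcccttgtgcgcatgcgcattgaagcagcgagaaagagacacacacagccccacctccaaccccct
Zfp790: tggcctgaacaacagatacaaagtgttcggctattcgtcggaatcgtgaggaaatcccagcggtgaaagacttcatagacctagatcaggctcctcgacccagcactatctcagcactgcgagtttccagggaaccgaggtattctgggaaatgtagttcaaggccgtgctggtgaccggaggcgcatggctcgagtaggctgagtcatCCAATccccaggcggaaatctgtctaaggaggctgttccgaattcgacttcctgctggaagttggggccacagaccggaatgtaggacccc
Zfp940: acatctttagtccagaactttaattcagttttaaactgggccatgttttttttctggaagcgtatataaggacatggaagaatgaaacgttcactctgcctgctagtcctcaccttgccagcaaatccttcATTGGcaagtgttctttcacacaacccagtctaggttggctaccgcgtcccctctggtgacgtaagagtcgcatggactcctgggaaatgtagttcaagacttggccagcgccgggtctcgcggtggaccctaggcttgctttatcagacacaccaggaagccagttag
Zfp277: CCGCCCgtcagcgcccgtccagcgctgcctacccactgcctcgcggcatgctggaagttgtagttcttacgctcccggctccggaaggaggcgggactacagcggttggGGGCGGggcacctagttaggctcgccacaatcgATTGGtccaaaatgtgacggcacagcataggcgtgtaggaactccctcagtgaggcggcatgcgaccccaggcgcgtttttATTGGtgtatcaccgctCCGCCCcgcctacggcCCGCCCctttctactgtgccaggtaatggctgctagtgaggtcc
The promoter table held 66 of the 85 Zfp genes. A CCAAT box was found in 56.1% of the 66, against 37.9% of the 27025 promoters in the table, noncoding genes included, a GC box in 62.1% against 35.9%, and a TATA box in 7.58% against 14.2%. The Zfp277 window held 4 GC boxes and 26 CpG, and the Zfp30 window held no GC box and 9 CpG. The median was 16.5 CpG over the 66 windows, against 7.0 over all promoters. The 66 genes were selected on level and the promoters in the table were not, so these shares do not compare like with like. Promoters of the 7513 tested genes alone were not counted. A match is a description of letters and not a binding site.

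The spread of the Zfp genes between strains was close to that of all genes tested. The median SD between the 28 classical strains was 0.23 for the 85 Zfp genes (jackknife SE 0.017) and 0.23 for all 7513 genes (SE 0.0057). It was 0.24 for 12 Zbtb genes, 0.20 for 9 Zkscan and Zscan genes and 0.40 for 8 Klf genes, which are other families of zinc finger factors. Within the near-isogenic families the median SD was 0.20 for the Zfp genes and 0.20 for all genes, with only 5 arrays behind it. An SD of at least 0.5 was reached by 4 of 85 Zfp genes (4.71%), against 6.92% of all genes.

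The brightest members were Zfp622, a factor of large ribosomal subunit maturation, with a mean of 9.58, and Zfp706 (9.39). Zfp148, a GC-box binding factor, followed with 8.52, then Zfp207, a spindle and kinetochore protein, with 7.46. Zfp445, which guards imprinted loci, also averaged 7.46, and Zfp639 averaged 7.42. Zfp148 was also among the steadiest, with an SD of 0.14 between classical strains. The others of smallest SD were Zfp959 (0.13), Zfp329 (0.14) and Zfp688 (0.16).

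The largest SD between classical strains belonged to Zfp30 (0.88), a KRAB zinc finger gene studied in mice for airway neutrophil recruitment. Zfp24, a SCAN-domain factor needed for myelination, had 0.55, and Zfp277, a partner of Polycomb repressors at the Ink4a/Arf locus, had 0.53. Zfp612 followed with 0.52, Zfp97 with 0.47 and Zfp106 with 0.45. Zfp106 encodes an RNA-binding protein needed by motor neurons. Zfp612 also varied within the near-isogenic families (SD 0.79, above its SD between the classical strains), and on the AXB19 arrays it read 3.73 in AXB19, 5.18 in AXB19a and 5.56 in AXB19b. For Zfp97 the near-isogenic SD was 0.46, beside 0.42 for Zfp30 and 0.27 for Zfp277.

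**Figure D1:**
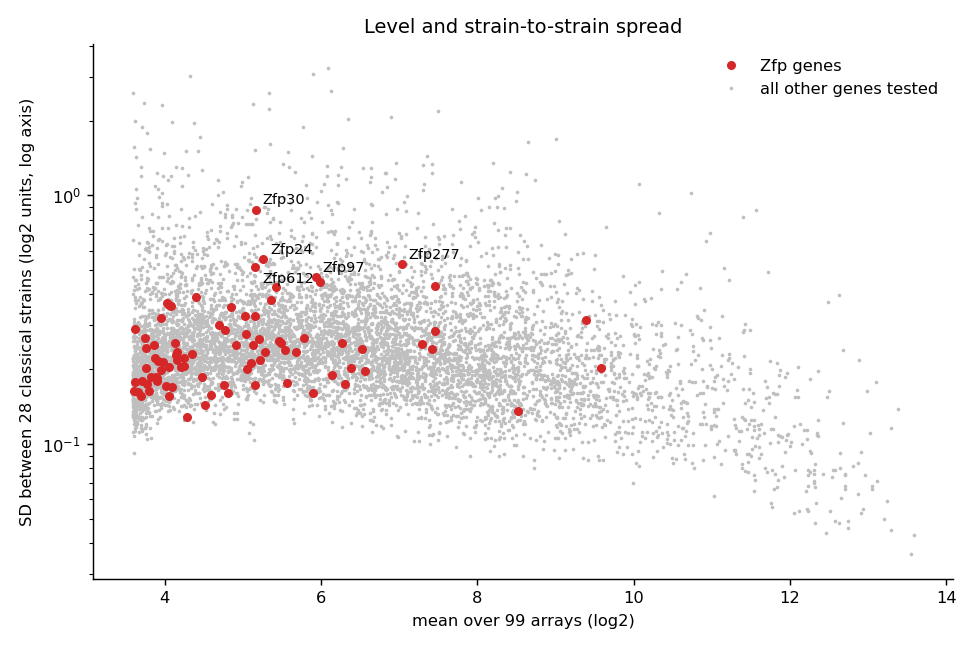
Mean log2 level over 99 arrays (x axis) against the SD between 28 classical strains in log2 units (y axis, logarithmic), 1 point per gene, with the 85 Zfp genes in red and all other genes tested in grey. Zfp30 (0.88) stands highest among the Zfp genes, and all of them lie within the range of the grey points.

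An on-off pattern was looked for among the 28 classical strains, as a gap of at least 1 log2 unit between neighbouring strains with at least 3 strains on each side. No Zfp gene had one (0 of 85), against 0.745% of all genes tested. This count is a description, with no test. The gaps that came closest were 0.85 in Zfp277, with 3 strains below it and 25 above, and 0.57 in Zfp612, with 5 below and 23 above. In Zfp30 the largest gap was 0.45, with 13 strains below and 15 above.

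Zfp277 was low in LG/J (5.70), DBA/2J (5.79) and I/LnJ (6.11). The other 25 classical strains ran from 6.96 in NON/ShiLtJ to 7.70 in C58/J, and the median of all 28 was 7.45. Zfp277 thus showed a small low group and an even high group.

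Zfp30 was graded. Its lowest strains were C3H/HeJ (4.11), SWR/J (4.13), C57BL/6J (4.13), CBA/J (4.18), FVB/NJ (4.27), C58/J (4.39) and BUB/BnJ (4.40). KK/HlJ (4.54), SM/J (4.68), I/LnJ (5.01), BALB/cJ (5.02), LG/J (5.28) and CE/J (5.35) filled the middle. The highest were AKR/J (6.57), NOD/ShiLtJ (6.54), RIIIS/J (6.48), NON/ShiLtJ (6.36) and DBA/2J (6.29), and A/J had 6.14. Related strains did not always share a level, since C57L/J had 5.88 while C57BL/6J and C58/J were low. Signal over background could not be examined, so these values do not say whether the transcript was absent in the low strains.

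**Figure D2:**
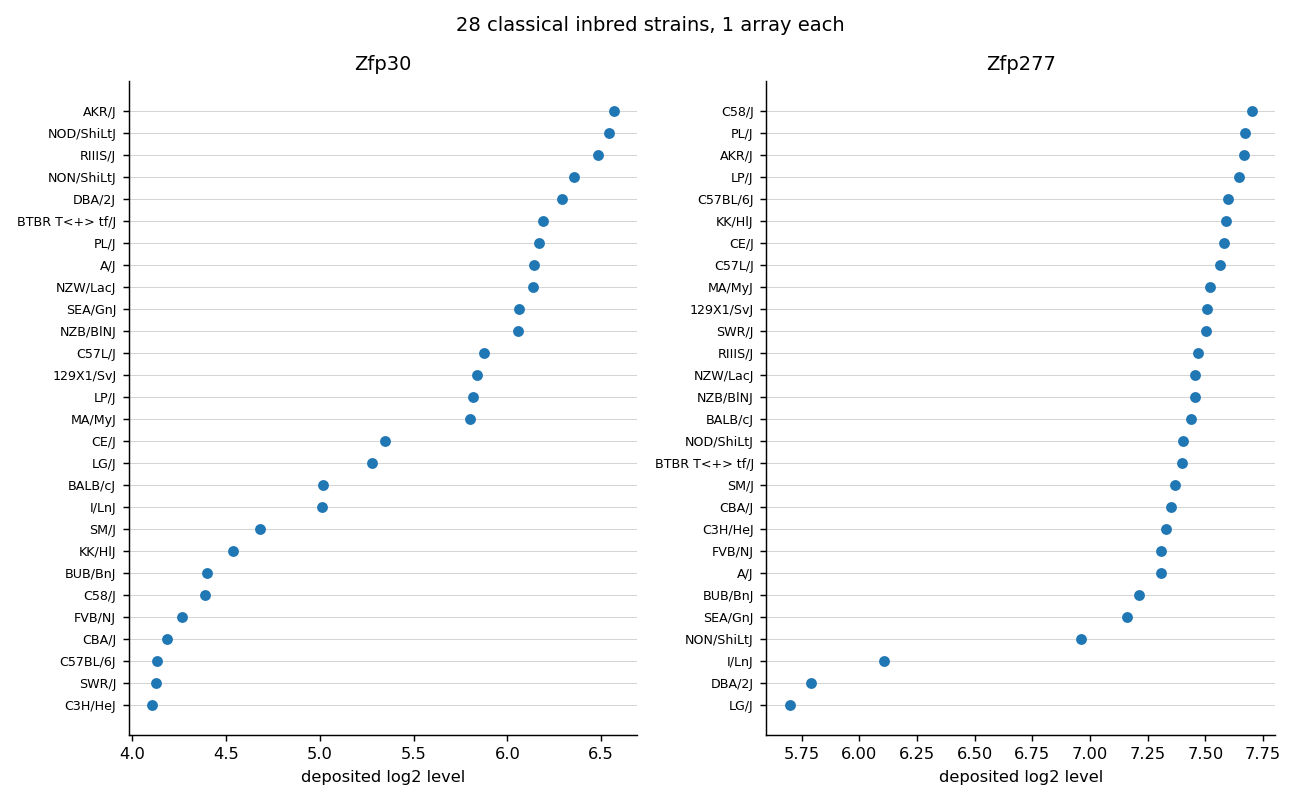
Deposited log2 level (x axis) of Zfp30 and Zfp277 in 28 classical inbred strains, 1 point per array, strains ordered by level. Zfp30 runs from 4.11 to 6.57 with the largest gap of 0.45 in the middle, and Zfp277 has 3 strains at or below 6.11 and 25 at or above 6.96.

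The recombinant inbred panels show how such differences are passed on. The parents of BXD differed by at least 1 log2 unit in 5 of 85 Zfp genes (4.55% of all genes tested), those of AXB and BXA in 2 (2.72%) and those of BXH in 0 (4.55%). Of the 5 in BXD, Zfp277, Zfp106 and Zfp758 were lower in DBA/2J and Zfp30 and Zfp568 higher. Of the 2 in AXB and BXA, Zfp97 was lower in A/J and Zfp30 higher. Each parent is 1 array, so these differences have no test. The largest parental difference in BXH was 0.99 below C57BL/6J in C3H/HeJ, for Zfp106.

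Zfp30 was 6.29 in DBA/2J and 4.13 in C57BL/6J. In the 29 BXD families it ran from 3.84 through a median of 4.43 to 6.84, with 8 families above the parental midpoint of 5.21 and 21 below. The largest gap between families was 0.74 and fell between those 21 and those 8. In AXB and BXA the parents had 6.14 (A/J) and 4.13 (C57BL/6J), and 19 of 26 families lay above the midpoint of 5.14 and 7 below, again on either side of the largest gap (0.81). Of the 13 AXB families 8 were above, and of the 13 BXA families 11. In BXH, whose parents had 4.11 (C3H/HeJ) and 4.13 (C57BL/6J), all 11 strains lay between 3.89 and 4.597. The panels with a high parent therefore held families in both states, and the panel with 2 low parents held only low strains.

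Zfp277 was 5.79 in DBA/2J and 7.60 in C57BL/6J. The BXD families ran from 5.42 through 5.88 to 7.42, with 11 above the midpoint of 6.70 and 18 below. The largest gap was 0.50 and separated 16 families below from 13 above, so 2 families (6.49 and 6.61) lay between the gap and the midpoint. The AXB and BXA families stayed between 6.98 and 7.55, where A/J had 7.31, and the BXH strains between 7.35 and 7.74, where C3H/HeJ had 7.33. No low strain occurred in a panel without the DBA/2J parent. Both near-isogenic BXD24 arrays were low, at 5.72 and 5.11.

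The other parental differences did not divide the families as clearly. Zfp106 was 5.30 in DBA/2J and 6.96 in C57BL/6J, and 24 of 29 BXD families lay below the midpoint of 6.13. Zfp568, a KRAB factor that represses a placental Igf2 transcript in the mouse embryo, was 5.89 in DBA/2J and 4.78 in C57BL/6J, with 18 BXD families above the midpoint and 11 below. Zfp758 was 4.03 in DBA/2J and 5.26 in C57BL/6J, with 20 BXD families above the midpoint. Zfp97 was 5.23 in A/J and 6.29 in C57BL/6J, and 21 of the 26 families of AXB and BXA exceeded the midpoint. No Zfp gene had a gap of at least 1 log2 unit in BXD (0.426% of all genes), in AXB and BXA (1.04%) or in BXH (0.586%), a rule extended to the panels after the data had been seen. Below 1, Zfp24 had a gap of 0.77 in BXH, with 4 strains above it and 7 below, where its parents differed by 0.69. Zfp947 had a gap of 0.75 in BXH, also with 4 strains above and 7 below, where its parents differed by 0.54.

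**Figure D3:**
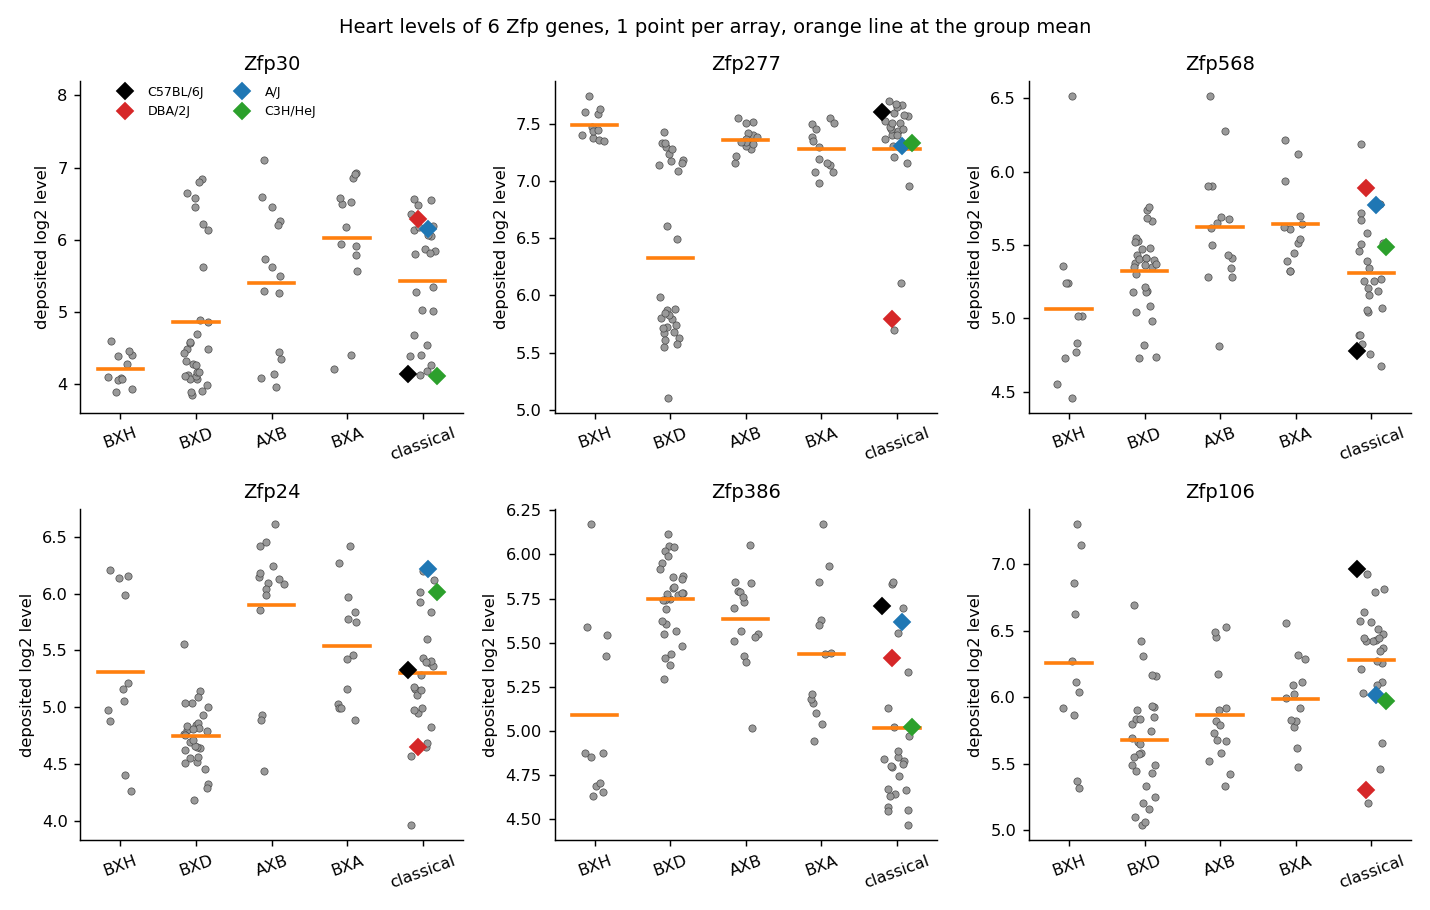
Deposited log2 level (y axis) of 6 Zfp genes by group, 1 point per array, with the group mean over arrays as an orange line and the 4 parent strains as coloured diamonds in the classical column. In Zfp30, BXD, AXB and BXA hold low and high arrays while the 11 BXH arrays lie between 3.89 and 4.597, and in Zfp277 the BXD panel alone among the 4 panels holds arrays below 6.70.

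BXD hearts were set against AXB and BXA hearts, so that DBA/2J alleles meet A/J alleles, each mixed with C57BL/6J. Of 85 Zfp genes, 16 differed in limma (18.8%), against 14.6% of all 7513 genes. Of these, 7 were higher in BXD (background 8.59%) and 9 lower (6.04%). The median difference was 0.012 for the Zfp genes and 0.014 for all genes, so the family did not shift as a whole. The comparison shares its samples with other comparisons below.

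Zfp277 fell to 6.36 ± 0.74 in 29 BXD families, against 7.33 ± 0.16 in 26 AXB and BXA families (mean ± SD). The difference was -0.97 (SE 0.14, 1.96-fold lower in BXD, limma adjusted p = 3.87e-06). The ranges overlapped, because the high BXD families reached the AXB and BXA levels.

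Zfp24 fell to 4.75 ± 0.28 in BXD, against 5.69 ± 0.59 in AXB and BXA (difference -0.94, SE 0.12, adjusted p = 1.71e-07 in limma). The BXD families ran from 4.18 through 4.76 to 5.56 and the AXB and BXA families from 4.44 through 5.90 to 6.45. This rests on 1 of 4 probe sets. The other probe sets of Zfp24 differed by 0.0034, 0.37 and -0.093, so a lower total Zfp24 transcript is not shown. With the mean of the 4 probe sets the difference was -0.17 (adjusted p = 0.003 in limma).

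Zfp30 fell to 4.86 ± 1.03 in BXD, against 5.65 ± 1.01 in AXB and BXA (difference -0.80, SE 0.27, adjusted p = 0.035 in limma). The panels span the same range, and they differ in how many families lie in the high state (8 of 29 BXD, 19 of 26 AXB and BXA). The parents DBA/2J and A/J differed by only 0.15, in the opposite direction. The call was lost with no filter on dim genes (adjusted p = 0.0507 in limma), with the Gapdh covariate (adjusted p = 0.0662 in limma), without arrays carrying markers of another organ (adjusted p = 0.13) and in each range of title numbers, where the differences were between -0.91 and -0.78.

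The other called genes differed by less. Lower in BXD were Zfp131 (-0.37, SE 0.10), Zfp568 (-0.35, SE 0.08), the SCAN-domain gene Zfp397 (-0.24, SE 0.052), Zfp346, which encodes a double-stranded RNA-binding protein (-0.23, SE 0.07), Zfp639 (-0.22, SE 0.054) and Zfp207 (-0.17, SE 0.059). The Zfp207 call rests on 1 probe set, since another of similar signal differed by -0.016. With the mean of its probe sets Zfp207 differed by -0.0048 (adjusted p = 0.93 in limma), and with the Gapdh covariate by -0.047 (adjusted p = 0.734). Higher were Zfp790 (0.31, SE 0.096), Zfp947 (0.28, SE 0.074), Zfp532 (0.27, SE 0.066) and Zfp932, a KRAB factor that binds endogenous retroviruses in mouse stem cells (0.25, SE 0.078). Zfp386 (0.23, SE 0.071), Zfp764 (0.18, SE 0.052) and Zfp651 (0.18, SE 0.057) were higher too. Their limma adjusted p-values ran from 0.000775 for Zfp397 to 0.0414 for Zfp207. The Zfp386 and Zfp790 calls each rest on 1 of 2 probe sets, since the other differed by 0.0091 for Zfp386 and -0.14 for Zfp790. For Zfp346 the other probe set differed by -0.33. Zfp947 had 4.08 in BXD and 3.79 in AXB and BXA, and Zfp932 had 4.18 and 3.93. These levels lie around the array medians, and signal over background could not be examined.

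**Figure D4:**
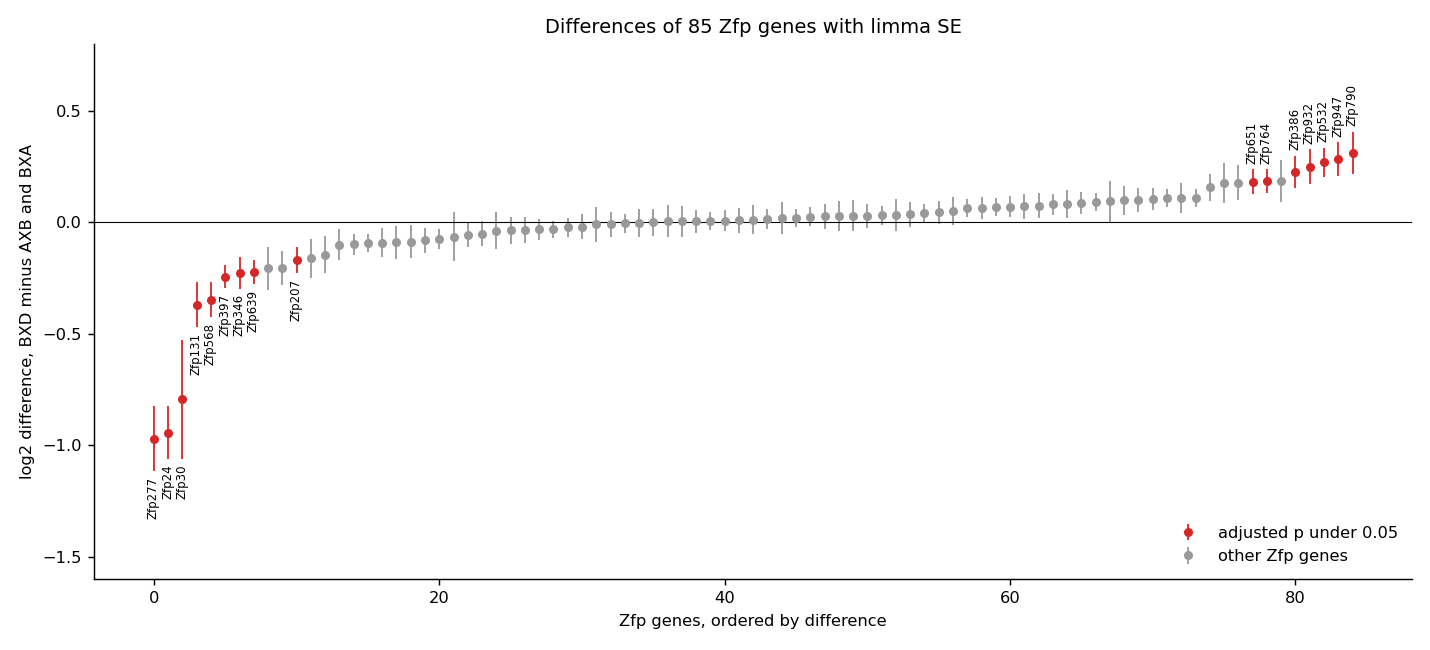
Difference in log2 units between 29 BXD and 26 AXB and BXA families (y axis, BXD minus AXB and BXA, bars are the limma SE) for 85 Zfp genes ordered by difference (x axis), with the 16 genes at adjusted p under 0.05 in red. Zfp277, Zfp24 and Zfp30 lie between -0.97 and -0.80, and the other Zfp genes lie between -0.37 and 0.31.

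With the arrays divided by title number, 10 of the 16 genes missed the threshold in the lower range and 13 in the upper. Their direction was the same in both ranges, which are parts of the samples that gave the calls. The near-isogenic BXD24 and AXB19 arrays fell in both ranges, so the ranges share these 2 families. Of the 16, 10 had the sign of the parental difference, DBA/2J minus A/J, which was measured on other arrays, against 88.1% of the 1099 genes called in all. Zfp277 (-1.52) and Zfp24 (-1.56) had the largest parental differences among them and kept their sign. Those that did not were Zfp30 (0.15), Zfp568 (0.12), Zfp639 (0.044), Zfp131 (0.0053), Zfp386 (-0.20) and Zfp651 (-0.83). For the first 4 of these the parents were at most 0.15 apart. RNA quality was read from the Gapdh controls as the 3' level minus the 5' level, which was -0.22 ± 0.085 on 30 BXD arrays, against -0.33 ± 0.092 on 15 AXB and -0.30 ± 0.069 on 13 BXA arrays (SD). With it as a covariate 10 of 85 Zfp genes were called, against 5.39% of all genes. Zfp277 (-0.90) and Zfp24 (-0.95) were among the 10, and the part of RNA quality in the other differences was not tested further.

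BXH hearts were set against AXB and BXA hearts, which compares C3H/HeJ with A/J alleles. The title numbers of these groups do not overlap, so panel and title number cannot be told apart here. Of 85 Zfp genes, 6 differed in limma (7.06%), against 6.52% of all genes, with 1 higher in BXH (3.18% of all genes) and 5 lower (3.34%). Zfp30 fell to 4.20 ± 0.23 in 11 BXH strains, against 5.65 ± 1.01 in 26 AXB and BXA families (-1.45, SE 0.30, 2.73-fold lower, adjusted p = 0.00211 in limma). Its parents differed by -2.04 in the same direction. Zfp568 (-0.60, SE 0.14), Zfp131 (-0.44, SE 0.095), Zfp386 (-0.43, SE 0.13) and Zfp869 (-0.20, SE 0.045) were also lower, and Zfp932 was higher (0.45, SE 0.076, adjusted p = 0.000331). Zfp932 had 4.38 ± 0.22 in BXH, against 3.93 ± 0.21 in AXB and BXA. These levels and those of Zfp869 (3.79 in BXH, 3.99 in AXB and BXA) lie around the array medians. Signal over background could not be examined there. After arrays carrying other organs' markers were left out, only 3 BXH strains remained and no Zfp gene was called, while Zfp30 differed by -1.46 (adjusted p = 0.365) and Zfp932 by 0.52 (adjusted p = 0.176) in limma.

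BXH hearts were also set against BXD hearts, again with title numbers that do not overlap. Of 85 Zfp genes, 5 differed (5.88%), against 10.6% of all genes, with 3 higher in BXH (4.3% of all genes) and 2 lower (6.34%). Zfp277 rose to 7.49 ± 0.13 in 11 BXH strains, against 6.36 ± 0.74 in 29 BXD families (1.13, SE 0.22, 2.19-fold, adjusted p = 0.000675 in limma). The lowest BXH strain (7.35) lay just below the highest BXD family (7.42). Without the arrays carrying other organs' markers, which left 3 BXH strains, the difference was 1.32 and was not called (adjusted p = 0.109 in limma). Zfp106 rose by 0.57 (SE 0.17, adjusted p = 0.0222 in limma), while its other probe set differed by -0.046. Zfp24 rose by 0.56 (SE 0.15, adjusted p = 0.011) on the same 1 of 4 probe sets, and this call was lost with the mean of its probe sets, with the Gapdh covariate and without arrays with markers of another organ. Zfp386 fell to 5.09 ± 0.51 in BXH, against 5.75 ± 0.21 in BXD (-0.66, SE 0.11, adjusted p = 0.000124 in limma), and its other probe set, which reads 3.89 on average, differed by -0.30. The ranges overlapped, with BXH strains from 4.63 to 6.17 and BXD families from 5.29 to 6.12. Within BXH the largest gap was 0.55, with 7 strains below it and 4 above. Zfp386 passed the threshold under each alternative run for BXH against BXD. Zfp651 fell by 0.30 (SE 0.079).

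Against the 28 classical strains, 2 of 85 Zfp genes differed in BXH, where 0.293% of all genes did. None was higher (0.0799% of all genes) and 2 were lower (0.213%). Zfp30 fell to 4.20 ± 0.23 in 11 BXH strains, against 5.42 ± 0.88 in 28 classical strains (-1.22, SE 0.26, adjusted p = 0.0204 in limma). The classical strains hold both low BXH parents. Zfp521, a factor of blood and nerve cell progenitors, fell to 4.98 ± 0.14 in BXH, against 5.28 ± 0.21 in the classical strains (-0.30, SE 0.07, adjusted p = 0.0438 in limma). Neither was called after those arrays were left out or with only the 4 BXH strains whose title numbers lie among those of the classical strains, where Zfp30 differed by -1.03 and -1.17.

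The reciprocal panels AXB and BXA share their parents. No Zfp gene differed between 13 AXB and 13 BXA families in limma (0 of 85, against 0.0% of all genes), with or without a trend in the prior variance. At an unadjusted p under 0.05 there were 11 Zfp genes and 786 of all genes. Zfp30, with 5.28 ± 1.03 in AXB and 6.02 ± 0.88 in BXA, had the largest difference (-0.74).

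Zfp genes were spread over 18 chromosomes, with 18 on chromosome 7, 10 on chromosome 17 and 9 on chromosome 8. In the RefSeq order of protein-coding genes 8 pairs stood side by side, which involved 13 of the 85. In 0 of these pairs did both genes have parents at least 1 log2 unit apart in the same panel. Zfp30 stands in a row with Zfp84, Zfp790 and Zfp940 on chromosome 7, and 6 protein-coding genes lie between Zfp30 and Zfp568. In BXD, 17 of 29 families lay on the same side of the midpoint for Zfp30 and Zfp568, and 7 of the 8 families high in Zfp30 were also above the midpoint in Zfp568.

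Of the Zfp genes in that row, Zfp84 and Zfp940 had even panel means. Zfp84 had 4.13 ± 0.22 in BXH, 4.06 ± 0.23 in BXD and 4.14 ± 0.18 in AXB and BXA, and Zfp940 had 4.18 ± 0.20 in BXH, 4.16 ± 0.25 in BXD and 4.16 ± 0.29 in AXB and BXA. In the AXB and BXA families Zfp940 ran from 3.83 through a median of 4.13 to 5.40. Neither gene was called in any comparison. They averaged 4.10 (Zfp84) and 4.16 (Zfp940), near the array medians and near the 4.13 of Zfp30 in C57BL/6J. At such a level a missing pattern and a signal too weak to show one cannot be told apart. Zfp790, next to Zfp30, was higher in BXD, opposite to Zfp30, but its other probe set, almost as bright (4.87), differed by -0.14 there. On the brightest probe set, the 7 AXB and BXA families low in Zfp30 read 4.82 to 5.35 in Zfp790. The other 19 read 4.08 to 5.26. In BXD, the 8 families high in Zfp30 read 4.53 to 5.49 in Zfp790, and the other 21 read 4.13 to 5.81. This relation was not tested. On chromosome 18, Zfp397, Zfp35 and Zfp24 stand side by side. Zfp397 was lower in BXD, as was Zfp24 on 1 of its 4 probe sets, while Zfp35 between them differed by 0.029 (SE 0.07) and was not called.

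**Figure D5:**
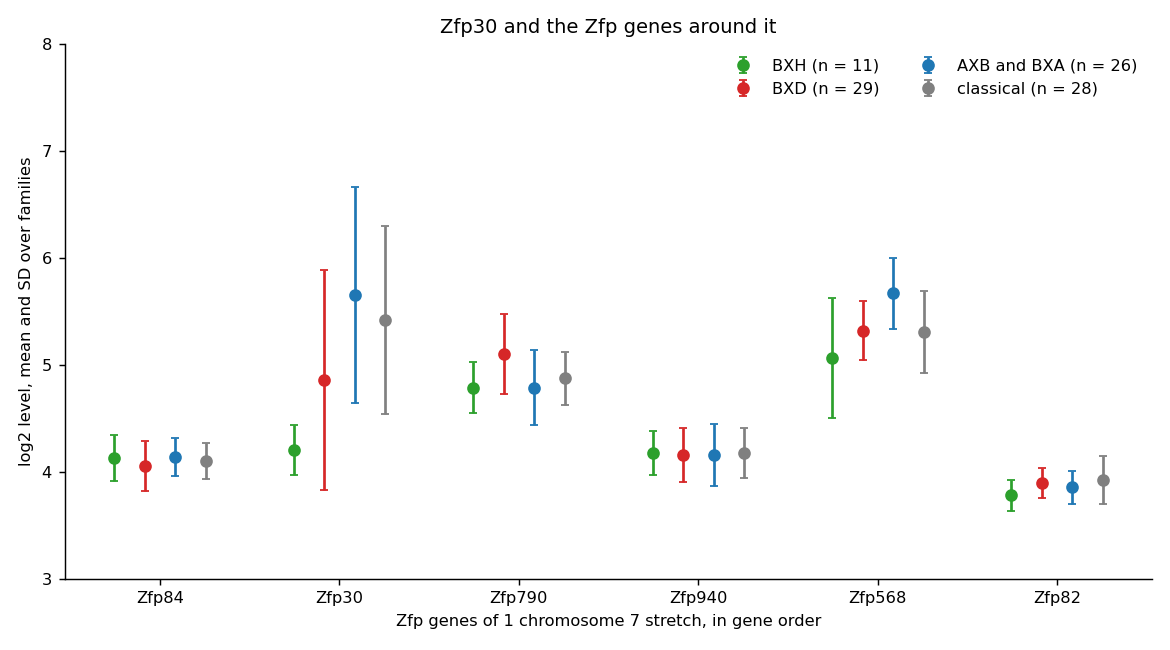
Log2 level (y axis, mean with SD over families) of 6 Zfp genes of a chromosome 7 stretch in gene order (x axis) in BXH, BXD, AXB with BXA, and classical strains. Zfp30 means run from 4.20 in BXH to 5.65 in AXB and BXA, while those of Zfp84 and Zfp940 stay between 4.06 and 4.18.

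Agreement between probe sets was limited. Of the 19 Zfp genes called in any comparison, 12 had 1 probe set and 7 had several. Over the comparisons, those 7 gave 17 differences in other probe sets, 12 of them from probe sets above the level threshold. Of these 12, 6 had the sign of the brightest probe set, and only 2 of them reached at least 0.5 of its size. Those 2 were Zfp346 between BXD and AXB with BXA (-0.33) and Zfp386 between BXH and AXB with BXA (-0.29). Zfp30, Zfp277 and Zfp568 have a single probe set each, so no other probe set bears on them, and the part of sequence differences under the probes was not tested.

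Of 30 listed co-repressor and chromatin genes that act with KRAB zinc finger proteins, 24 were tested. Between BXD and AXB with BXA, 2 were higher and 1 lower (12.5% of the 24, against 14.6% of all genes). Mta1, a subunit of the NuRD deacetylase complex, rose to 6.28 ± 0.23 in BXD, against 5.85 ± 0.34 in AXB and BXA (0.43, SE 0.077, adjusted p = 7.67e-05 in limma). Cbx5, which encodes heterochromatin protein 1 alpha, rose by 0.16 (SE 0.055) and the histone chaperone subunit Rbbp7 fell by 0.10 (SE 0.028). Between BXH and AXB with BXA 8.33% of the list was called, against 6.52% of all genes. Dnmt1, the maintenance DNA methyltransferase, rose by 0.27 (SE 0.08) and Mphosph8, a subunit of the HUSH silencing complex, fell by 0.27 (SE 0.052). Between BXH and BXD, 4 of the 24 were called (16.7%, against 10.6% of all genes). All 4 were lower in BXH, as were 6.34% of all genes. They were Mta1 (-0.58, SE 0.096), the DNA methyltransferase Dnmt3a (-0.31, SE 0.10), Cbx5 (-0.27, SE 0.077) and Mphosph8 (-0.23, SE 0.061). None of the 24 was called in the other comparisons, including Trim28 and Setdb1, which were called in no comparison. The median difference of the list stayed between -0.056 and 0.062 over the 5 comparisons.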

How the data were processed

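Heart RNA of 99 strains was hybridised to Affymetrix HT_MG-430A arrays from oligo-dT primed cDNA. The deposited values are the authors' log2 levels of 22416 probe sets. GCOS and RMA are named, with no version, per the submitters' processing notes. RMA corrects background, normalises by quantiles and sums probes, so arrays already share a distribution. No scanner files were used here, so signal over background and single probes could not be examined. For the array values, the genome build is not stated in the labels or file.

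Gene names came from the platform's annotation, in which 17783 probe sets had 1 symbol, 284 several and 4349 none here. For each of 11725 genes the brightest probe set was used, of which 7513 passed the level threshold. Groups come from the strain labels. Limma 3.58.1 in R 4.3.3 (lmFit, eBayes, no covariates) was fitted to the compared groups over all 7513 genes, with Benjamini-Hochberg adjustment and calls at adjusted p under 0.05, and was tested on simulated data. Python 3.11.15 did the rest. Fold changes are 2 to the power of the log2 difference.

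Named genes followed a rule: Zfp30, Zfp277 and Zfp24, up to 12 called members per comparison by size, members with parents at least 1 apart, the 6 brightest, the 6 of largest and 4 of smallest SD, the 3 on each side of the threshold and up to 4 called co-repressors. The 4 smallest of the 16 called between BXD and AXB with BXA, Trim28, Setdb1, called co-repressors beyond 4, Zfp84, Zfp940, Zfp82, Zfp35 and the genes named for CAST/EiJ were chosen after their values were seen. The members and lists were chosen with earlier results of these data known. Alternatives covered the dim filter, probe sets, near-isogenic averaging, the prior, array centring, the Gapdh control, organ markers and title numbers. Protein features were not analysed here. Genes resembling Zfp30 or Zfp277 across strains are not given, since the strains fall into clusters.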

Additional observations from a re-analysis of the deposited data

How the results depend on the processing

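No difference of a called Zfp gene changed direction in the 265 refits of 29 differences, of which 204 stayed past the threshold and 61 did not. Only Zfp24 and Zfp277 in BXD against AXB and BXA and Zfp386 in BXH against BXD passed it under every alternative run for their comparison. The Zfp24 difference rests on 1 of 4 probe sets (-0.94), which also enters the mean of its probe sets. Its other probe sets differed by 0.0034, 0.37 and -0.093. Changing the dim filter or the prior leaves the fitted difference as it was. So does the mean of all probe sets for genes with 1 probe set, such as Zfp277. Those refits could not change direction. The other refits reuse all or part of the same samples. With the Gapdh covariate 10 Zfp genes were called in place of 16 for BXD against AXB and BXA, 3 in place of 5 for BXH against BXD and 1 in place of 2 for BXH against the classical strains. Of all genes, 5.39%, 6.83% and 0.319% were called there. For BXH against AXB and BXA the count stayed at 6, with 548 calls over all genes in place of 490. Title numbers split at their middle gave 7 (lower) and 3 (upper) in place of 16, from fewer families. Leaving out arrays that carried other organs' markers gave 0 in place of 6 for BXH against AXB and BXA, 1 in place of 5 for BXH against BXD and 0 in place of 2 for BXH against the classical strains, with 3 BXH strains left. With the 4 BXH strains within the title numbers of the classical strains the count was 0, and with no filter on dim genes it was 1. The cause of the changes with the covariate was not tested. Over all genes, BXD against AXB and BXA gave 1099 calls, 405 with the covariate, 512 and 170 in the title ranges and 460 without the organ-marker arrays. The last step gave 17 in place of 490 for BXH against AXB and BXA, 80 in place of 799 (513 with the covariate) for BXH against BXD and 0 in place of 22 for BXH against the classical strains, where the title range gave 1.

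A gap of 0.75 in place of 1 gave 1 Zfp gene with an on-off pattern, Zfp277 (1.18%, against 1.14% of all genes). Parental differences of at least 0.75 gave 10 Zfp genes for the BXD parents (11.8%, against 9.33% of all genes), 7 for those of AXB with BXA (8.24% against 5.26%) and 4 for those of BXH (4.71% against 9.46%). Of at least 1.5 they gave 3 in BXD (3.53% against 1.44%) and 1 in AXB and BXA (1.18% against 1.04%). The median SD between classical strains was 0.20 with the mean of all probe sets in place of 0.23. No paired analysis was made, since each strain had 1 array and the compared groups hold different strains. The number of arrays limits what could be seen.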

Other observations

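CAST/EiJ, a wild-derived strain with 1 array that enters no comparison, lay outside the range of the 28 classical strains in 14 of 85 Zfp genes (16.5%), against 27.5% of all genes tested. It was below the range in 10 (11.8% of the 85, against 16.9% of all genes) and above it in 4. Zfp329 was 3.46 in CAST/EiJ, against 4.18 to 4.89 in the classical strains. Zfp386 was 6.51, against 4.47 to 5.84. Zfp568 was 4.40, against 4.68 to 6.19, and Zfp30 was 4.01, against 4.11 to 6.57. Airway, liver and fast skeletal muscle markers were high on the CAST/EiJ array (list means 9.14, 10.43 and 9.76), and their part in these values was not tested. B6cC3-1/KccJ lay outside the range in 8 Zfp genes (9.41%, against 4.38% of all genes), with 7.82 for Zfp277.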
